A study of Mus musculus with 9 samples.

Results

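The genes described here are 45 protein-coding genes whose products build ribosomes in the nucleolus, taken by symbol from a list that covers rRNA transcription, small nucleolar ribonucleoproteins (snoRNPs), rRNA processing and subunit assembly. All 45 symbols were found in the table of 15552 genes, each in a single row, and all 45 passed the filter on low counts that left 11373 genes for testing. Their RNA was measured in MyC-CaP cells, a prostate cancer line from the tumor of a mouse that carried a human MYC transgene under an androgen-responsive, prostate-directed promoter. The 9 libraries were labelled as biological replicates, with 3 per time point. The study's methods state that cells were plated in triplicate in multi-well plates. Whether the libraries of a time came from wells of the same plating or from separate experiments was not stated. In the first case, SE and p would measure the spread between wells. Libraries were taken at 0, 12 and 24 h after recombinant NRG1 was given at 15 ng/mL. NRG1 is a growth factor that binds HER3 on the cell surface. Cells of all 3 time points had before that been starved in medium without serum and calcium. The 0 h libraries had starvation but no time with NRG1. Libraries given buffer for 12 or 24 h were not analysed here, so time with NRG1 and time in this medium cannot be told apart in any comparison against 0 h.

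Ribosomes are assembled mostly in the nucleolus. RNA polymerase I transcribes a long precursor rRNA, snoRNPs guided by small nucleolar RNAs (snoRNAs) modify it by methylation and pseudouridylation, and large sets of processing factors, helicases and GTPases cut, fold and load it with ribosomal proteins to give the small and the large subunit. Genes for these factors are among the best known targets of MYC in growing cells, and the demand for ribosomes is coupled to growth factor signaling. The mouse Myc row does not separate reads that came from the human transgene.

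The libraries held 28467089 to 39239760 counts. The members took 0.956% to 1.02% of them, and no member had fewer than 863 counts in any library. The part of counting depth in their spread was not tested. The median coefficient of variation of a member within a time point was 2.93%, and the highest was 12.4%, for Utp20 at 12 h. Replicate 3 at 12 h stood apart from the others of its time: the chi-square of its counts over genes, per degree of freedom, was 10.2 against replicate 1 and 10.3 against replicate 2, while replicates 1 and 2 differed by 4.33 and the pairs at the other times by 3.40 to 7.63. Counts of mitochondrially encoded genes among the protein-coding counts were 1.41% to 1.498% at 0 h, 1.12% to 1.18% at 12 h and 1.21% to 1.36% at 24 h; the part of this shift in the results was not tested. Among prostate epithelial markers, Foxa1, Hoxb13 and Krt8 were detected, while Epcam, Cdh1 and Krt18 were at or near 0. Markers of basal, immune, endothelial and stromal cells summed to at most 1.73 CPM (counts scaled to a common library size). In bulk RNA, fewer cells with a transcript and less of it per cell cannot be told apart, and CPM is a share of the library that says nothing of total RNA per cell.

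To ask whether ribosome biogenesis genes moved after NRG1, each pair of time points was compared in the whole table with the edgeR quasi-likelihood test, and a gene passed at a Benjamini-Hochberg adjusted p of at most 0.05. The share of members that rose at 12 h was near that of all tested genes. At 12 h, 7 of 45 members (15.6%) had risen and 1 (2.22%) had fallen against 0 h, where 13.6% of all tested genes were higher and 11.9% lower. At 24 h, 1 member (2.22%) was higher and 3 (6.67%) were lower than at 0 h, where 9.67% of all genes were higher and 7.76% lower. From 12 to 24 h, 0 members were higher and 4 (8.89%) were lower, where 1.97% of all genes were higher and 3.06% lower. DESeq2 likewise found 0 members higher in that last comparison, and 0 were higher at an unadjusted p under 0.05.

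No change reached 1.5-fold. The share of all genes that passed with at least that fold was 2.29% at 12 h against 0 h, 2.27% at 24 h against 0 h and 0.29% at 24 h against 12 h, and 0 of the 45 members were among them in each comparison. With shares this low, a count of 0 among 45 members does not set them apart from all genes. Measured on the log2 scale, the widest reach of any member's 95% interval was -0.35 on the low side and 0.33 on the high side over the 3 comparisons, against 0.585 for a 1.5-fold change. The interval lay within 1.25-fold in both directions for 43 members at 12 h against 0 h, and for all 45 in both comparisons at 24 h. Over the 11373 tested genes this held for 7043 at 12 h against 0 h, 7546 at 24 h against 0 h and 8225 at 24 h against 12 h. The median SE at 12 h against 0 h was 0.044 for the members and 0.061 for all genes, so narrow intervals are partly a matter of precision. Of 79 cytosolic ribosomal protein genes, 77 also lay within 1.25-fold in each comparison. In all, 11 members passed in at least 1 comparison and 34 passed in none. The share of all tested genes that passed in at least 1 comparison was not computed.

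**Figure D1:**
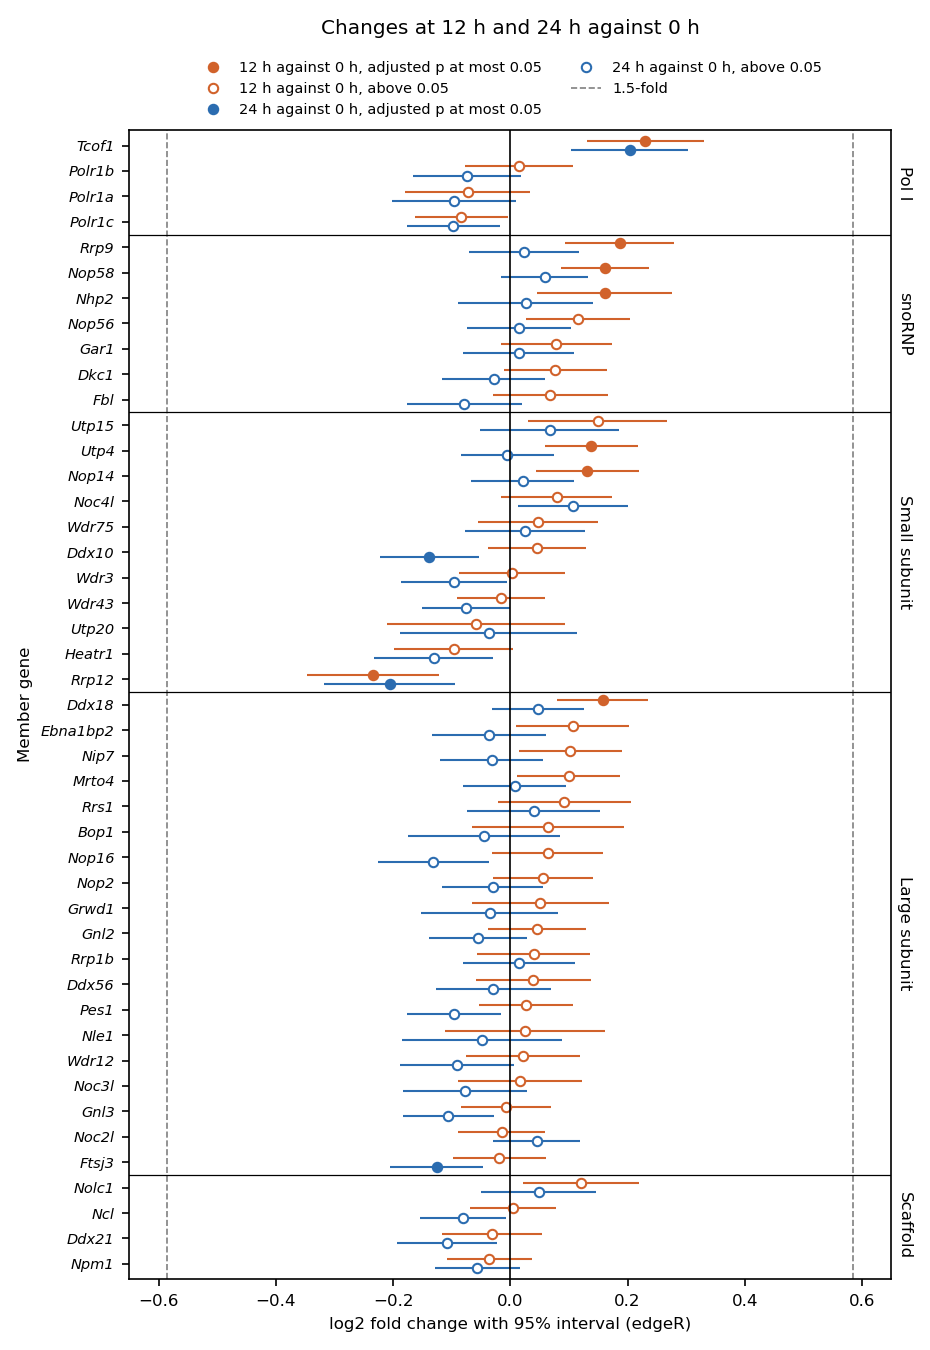
The log2 fold changes of the 45 members at 12 h and 24 h against 0 h (x axis) are shown by gene (y axis) within roles, with bars for the 95% interval of the edgeR fit and filled points for an adjusted p of at most 0.05. Every interval lies inside the dashed lines at 1.5-fold, and 7 members at 12 h and 1 at 24 h are filled on the right.

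The 4 genes of RNA polymerase I transcription split between Tcof1 and the polymerase subunits. Tcof1 encodes treacle, a nucleolar phosphoprotein needed for transcription of rRNA genes, and lies on chromosome 18. Its level was 74.2, 73.1 and 80.7 CPM in the 0 h libraries, 91.7, 91.8 and 83.9 CPM at 12 h and 87.1, 88.8 and 86.6 CPM at 24 h. All 6 treated libraries lay above all 3 at 0 h. The log2 change was 0.23 (SE 0.047, adjusted p = 0.00178) at 12 h and 0.20 (SE 0.047, adjusted p = 0.00629) at 24 h, and it passed in both comparisons under each alternative processing and with each library left out.

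Polr1a encodes the largest subunit of RNA polymerase I. It stood at 126, 141 and 132 CPM at 0 h, 124, 119 and 135 CPM at 12 h and 123, 129 and 121 CPM at 24 h. Polr1b, which encodes the other subunit that forms the catalytic center, stood at 85.0, 85.6 and 81.4 CPM at 0 h, 85.4, 85.7 and 83.5 CPM at 12 h and 76.5, 84.6 and 78.2 CPM at 24 h. The libraries of the 3 times overlapped for both genes, and the log2 estimates against 0 h were -0.07 and -0.10 for Polr1a and 0.02 and -0.07 for Polr1b at 12 and 24 h. For Polr1c, a subunit shared with RNA polymerase III, the mean was 124.5 CPM ± 4.7 (SD, n = 3) at 0 h, 117.4 ± 2.1 at 12 h and 116.3 ± 1.0 at 24 h, with adjusted p of 0.115 and 0.0849 against 0 h from the edgeR test.

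The 7 snoRNP genes had the highest median of the role groups at 12 h. All 7 estimates were positive at 12 h, with a log2 median of 0.12. Of the 7 genes, 3 passed (42.9%), Rrp9, Nop58 and Nhp2, where 13.6% of all tested genes were higher. At 24 h against 0 h the median was 0.015 and 0 of the 7 passed, where 9.67% of all were higher and 7.76% lower. Among them Fbl is the methyltransferase of box C/D snoRNPs, Nop56 and Nop58 hold it on the guide RNA, Rrp9 binds the U3 snoRNA, Dkc1 is the pseudouridine synthase of H/ACA snoRNPs, and Nhp2 and Gar1 are its partners.

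Rrp9 (ENSMUSG00000041506.15, chr9:106475963-106485424, GRCm38.p6) stood at 66.2, 65.2 and 64.4 CPM at 0 h, 75.7, 77.3 and 69.8 CPM at 12 h and 66.0, 65.3 and 67.7 CPM at 24 h. The 3 libraries at 12 h were above the other 6, and those at 0 and 24 h overlapped. Its log2 change was 0.19 (SE 0.044, edgeR adjusted p = 0.00507) at 12 h against 0 h and -0.16 (SE 0.044, adjusted p = 0.0406) at 24 h against 12 h. The rise at 12 h passed with each library left out. The fall from 12 to 24 h did not pass with 7 of the 9 libraries left out singly, where its adjusted p reached 0.159, nor with counts scaled by library totals (adjusted p = 0.0745) or only 2 time points in the fit (adjusted p = 0.0599).

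Nop58 (ENSMUSG00000026020.9, chr1:59684971-59719044) was also highest at 12 h, at 156, 159 and 162 CPM at 0 h, 175, 182 and 176 CPM at 12 h and 166, 162 and 169 CPM at 24 h. All 12 h libraries were above the other 6. The log2 change at 12 h was 0.16 (SE 0.035, adjusted p = 0.00279) and passed under every alternative run, while at 24 h against 0 h it was 0.06 (adjusted p = 0.287).

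Nhp2 rose by 0.16 on the log2 scale at 12 h (SE 0.054, adjusted p = 0.0382), from 107 CPM ± 7.1 to 120 ± 6.0 (SD, n = 3). Replicate 3 at 0 h, at 115 CPM, lay above replicate 3 at 12 h, at 114 CPM, and the call was lost with 5 of the 9 libraries left out singly, with an adjusted p of up to 0.161, and with counts scaled by library totals (adjusted p = 0.0615).

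The 4 other snoRNP genes did not pass. Nop56 stood at 147, 156 and 156 CPM at 0 h, 161, 174 and 161 CPM at 12 h and 160, 154 and 150 CPM at 24 h, with a log2 estimate of 0.12 at 12 h (adjusted p = 0.0556). Its 12 h libraries did not overlap those at 0 h. Fbl read 241, 225 and 226 CPM at 0 h, 262, 233 and 231 CPM at 12 h and 219, 218 and 219 CPM at 24 h. Its 24 h libraries lay below the other 6, and the log2 estimate at 24 h against 12 h was -0.15 (adjusted p = 0.0784). Dkc1 read 129, 129 and 137 CPM at 0 h, 139, 145 and 133 CPM at 12 h and 127, 129 and 133 CPM at 24 h, and the times overlapped. Gar1 had a log2 estimate of 0.08 at 12 h and 0.01 at 24 h against 0 h.

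Averaged over the 7 snoRNP genes, log2 CPM relative to the 0 h mean was 0.16, 0.14 and 0.07 in replicates 1, 2 and 3 at 12 h. The libraries at 0 h and those at 24 h all lay between -0.02 and 0.03. Replicate 3 at 12 h, the library that stood apart, was the lowest of its time and still above the libraries of the other times.

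Several members are also hosts of the guides that snoRNPs carry. In GENCODE vM21, 19 snoRNA genes lie inside 6 of the 45 members on the same strand: 5 in Nop56, 4 in Nop58, 3 each in Ncl, Gnl3 and Wdr43, and 1 in Dkc1. Of all tested genes in that annotation, 216 of 11369 (1.9%) hold such a gene. A box C/D snoRNA carries box C near its 5′ end and box D near its 3′ end, which the core proteins bind. In 8 of the 19, TGATGA lay within 15 bases of the first base and CTGA within 15 bases of the last, compared with 20.1% of 1529 annotated snoRNA sequences. Those 1529 are not only box C/D snoRNAs but take in all annotated classes, H/ACA among them. The exact match also missed Snord19, Snord53, Snord57 and Snord70, which are named as box C/D snoRNAs. The 8 are therefore the exact matches, not all box C/D genes among the 19. Of these 8, 1 per host is shown from the GENCODE vM21 transcripts (GRCm38), 5′ to 3′ in DNA letters, with those boxes in capitals, because snoRNAs inside a host gene are commonly released from its spliced introns.
Snord11, inside Nop58 (chr1:59704790-59704873, plus strand): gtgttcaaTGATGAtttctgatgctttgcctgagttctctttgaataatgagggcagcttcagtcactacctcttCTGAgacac
Snord110, inside Nop56 (chr2:130275506-130275573, plus strand): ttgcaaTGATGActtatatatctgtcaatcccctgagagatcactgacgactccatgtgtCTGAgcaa
Snord82, inside Ncl (chr1:86356261-86356330, minus strand): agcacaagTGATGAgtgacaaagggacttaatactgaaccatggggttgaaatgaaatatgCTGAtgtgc
Snord69, inside Gnl3 (chr14:31014287-31014366, minus strand): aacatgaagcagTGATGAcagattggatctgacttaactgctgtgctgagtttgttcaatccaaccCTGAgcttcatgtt
Snord92, inside Wdr43 (chr17:71631281-71631365, plus strand): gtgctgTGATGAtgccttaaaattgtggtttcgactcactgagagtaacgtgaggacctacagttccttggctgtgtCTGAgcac

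Snord69 overlaps an exon of some Gnl3 transcripts. The levels of the snoRNAs themselves were not analysed here; the host messages were, and of the 5 hosts printed Nop58 rose at 12 h while Nop56, Ncl, Gnl3 and Wdr43 passed in no comparison.

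**Figure D2:**
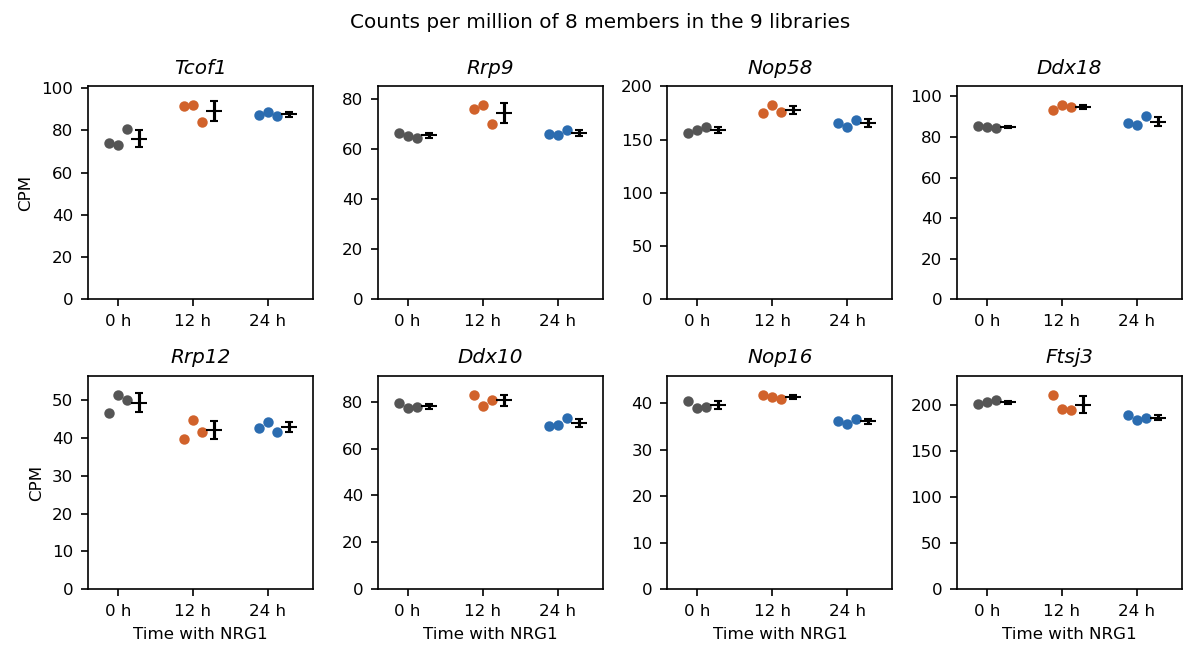
CPM (y axis, from 0) are plotted for 8 members that passed in at least 1 comparison, with 1 point per library at 0, 12 and 24 h (x axis) and a bar for the mean and SD of 3 libraries. Rrp9, Nop58 and Ddx18 are highest at 12 h, Tcof1 is above and Rrp12 below its 0 h level at both later times, and Ddx10, Nop16 and Ftsj3 are lowest at 24 h.

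Of the 11 genes for processing of the small-subunit precursor, 2 (18.2%) rose and 1 (9.09%) fell at 12 h. At that time 13.6% of all tested genes were higher and 11.9% lower. At 24 h, 2 of the 11 (18.2%) were lower than at 0 h, where 7.76% of all tested genes were lower. Utp4, a part of the complex that binds the nascent precursor early, rose by 0.14 on the log2 scale at 12 h (SE 0.037, adjusted p = 0.0123) and fell by 0.14 from 12 to 24 h (SE 0.037, adjusted p = 0.0358). Its libraries spanned 97.4 to 102 CPM at 0 h, 107 to 112 CPM at 12 h and 98.7 to 102 CPM at 24 h. The 12 h libraries lay above all others. The rise was lost without replicate 1 at 12 h (adjusted p = 0.05002), and the fall with 5 of the 9 libraries left out singly, with an adjusted p of up to 0.149, and with library totals (adjusted p = 0.0793). Nop14, an assembly factor of the small subunit, rose by 0.13 at 12 h (SE 0.041, adjusted p = 0.0275), from 103 CPM ± 5.1 to 113 ± 2.6 (SD, n = 3); this call was lost when counts were scaled by library totals, when only 2 time points entered the fit, and without replicate 1 at 0 h or at 12 h, with an adjusted p of up to 0.119.

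Rrp12 (ENSMUSG00000035049.4, chr19:41862851-41896173), which acts in maturation and export of pre-ribosomes, moved the other way. It stood at 46.7, 51.3 and 50.2 CPM at 0 h, 39.8, 44.7 and 41.7 CPM at 12 h and 42.7, 44.3 and 41.6 CPM at 24 h. All 6 treated libraries were below all 3 at 0 h. The log2 change was -0.23 (SE 0.053, adjusted p = 0.00388) at 12 h and -0.21 (SE 0.053, adjusted p = 0.0124) at 24 h. At 24 h the call was lost without replicate 2 at 0 h or without replicate 3 at 24 h, with an adjusted p of up to 0.0666.

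Ddx10 (ENSMUSG00000053289.8, chr9:53098635-53248053), a helicase that releases a snoRNA from the precursor, stood at 79.3, 77.3 and 77.8 CPM at 0 h, 82.8, 78.3 and 80.7 CPM at 12 h and 69.6, 70.1 and 73.1 CPM at 24 h. The 24 h libraries lay below the other 6. Its log2 change was -0.14 (SE 0.040, adjusted p = 0.0235) at 24 h against 0 h and -0.18 (SE 0.040, adjusted p = 0.0136) against 12 h. The first was lost with 5 and the second with 3 of the 9 libraries left out singly, with adjusted p of up to 0.102 and 0.0834.

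Heatr1, a large scaffold of the complex that holds Utp4, stood at 74.9, 85.2 and 84.1 CPM at 0 h, 75.7, 74.1 and 78.7 CPM at 12 h and 73.1, 75.0 and 75.1 CPM at 24 h. Replicate 1 at 0 h lay among the later libraries, and the log2 estimate was -0.13 at 24 h (adjusted p = 0.0726). Utp20, a scaffold of late small-subunit precursors, read 72.5, 79.9 and 77.8 CPM at 0 h, 69.7, 67.4 and 84.3 CPM at 12 h and 68.5, 78.9 and 77.0 CPM at 24 h. It was the noisiest member, with replicate 3 at 12 h highest of all 9. The 5 remaining genes of this group, Wdr43, Wdr75, Wdr3, Utp15 and Noc4l, had log2 estimates of -0.02 to 0.15 at 12 h and -0.10 to 0.11 at 24 h against 0 h, and none passed. Of the exonic bases of Wdr3, 16.2% overlap genes on the opposite strand, as do 20.9% for the large-subunit gene Noc2l, and whether the counting used strand was not stated.

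Of the 19 genes for assembly of the large subunit, 1 (5.26%) rose at 12 h, where 13.6% of all tested genes were higher. At 24 h, 1 of the 19 (5.26%) was lower than at 0 h, where 7.76% of all were lower. From 12 to 24 h, 1 of the 19 (5.26%) fell, where 3.06% of all were lower. Ddx18, a helicase, was at 84.9 CPM ± 0.4 (SD, n = 3) in the 0 h libraries, 94.7 ± 1.0 in those at 12 h and 87.7 ± 2.3 in those at 24 h, and the 12 h libraries lay above the other 6. Its log2 change at 12 h was 0.16 (SE 0.037, adjusted p = 0.00492) and passed under every alternative run. Copies at least 95% identical in other genes cover 87.8% of its transcript, so reads could be split or dropped there.

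Nop16 (ENSMUSG00000025869.11, chr13:54584185-54590090), a nucleolar factor of the large-subunit precursor, stood at 40.5, 38.9 and 39.2 CPM at 0 h, 41.7, 41.3 and 40.9 CPM at 12 h and 36.0, 35.6 and 36.5 CPM at 24 h. The 3 times did not overlap. It fell from 12 to 24 h by 0.20 on the log2 scale (SE 0.045, adjusted p = 0.0184), the largest fall among the members in that comparison, and its estimate against 0 h at 24 h was -0.13 (adjusted p = 0.0523). The call was lost with 4 of the 9 libraries left out singly, with an adjusted p of up to 0.0824.

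Ftsj3 (ENSMUSG00000020706.13, chr11:106249142-106256079), a methyltransferase-like processing factor, stood at 202, 203 and 205 CPM at 0 h, 211, 196 and 195 CPM at 12 h and 190, 184 and 186 CPM at 24 h. The 24 h libraries lay below the other 6. The log2 change at 24 h against 0 h was -0.13 (SE 0.037, adjusted p = 0.0280), and it was lost with 5 of the 9 libraries left out singly, with an adjusted p of up to 0.129.

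Pes1, Bop1 and Wdr12 form the PeBoW complex, which is needed for processing of large-subunit rRNA. Pes1 stood at 221, 220 and 222 CPM at 0 h, 233, 226 and 216 CPM at 12 h and 204, 214 and 202 CPM at 24 h. Its 24 h libraries were below the other 6, with log2 estimates of -0.10 against 0 h (adjusted p = 0.0907) and -0.12 against 12 h (adjusted p = 0.0700). Bop1 read 80.4, 84.5 and 95.8 CPM at 0 h, 91.1, 96.1 and 85.6 CPM at 12 h and 86.5, 78.6 and 87.6 CPM at 24 h, and the times overlapped. Wdr12 had log2 estimates of 0.02 at 12 h and -0.09 at 24 h against 0 h. Near-identical copies elsewhere cover 60.3% of the Pes1, 48.2% of the Wdr12 and 59.1% of the Mrto4 transcript.

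Gnl3 encodes nucleostemin, a nucleolar GTPase of proliferating and stem cells. It stood at 132, 136 and 136 CPM at 0 h, 135, 136 and 131 CPM at 12 h and 128, 127 and 121 CPM at 24 h. The 24 h libraries lay below the other 6, and the log2 estimate at 24 h against 0 h was -0.11 (adjusted p = 0.0561). The 12 other large-subunit genes, among them the rRNA methyltransferase gene Nop2, the assembly factor genes Rrs1, Nip7, Ebna1bp2 and Mrto4 and the chaperone gene Grwd1, passed in no comparison. Across all 19, the log2 estimates ran from -0.02 to 0.16 at 12 h and from -0.13 to 0.05 at 24 h against 0 h.

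The 4 abundant nucleolar scaffold and helicase genes passed in no comparison. Npm1 encodes nucleophosmin, the main protein of the granular layer of the nucleolus. It had the highest level of all members per transcript length at 0 h, 2195 CPM per kb. Ncl had 233 CPM per kb and Noc3l, the lowest, 7.65 CPM per kb. The transcript used was 1633 bases long for Npm1 and 8202 for Ncl, so the gap between them depends on the transcript chosen. Npm1 stood at 3656, 3572 and 3523 CPM at 0 h, 3633, 3380 and 3474 CPM at 12 h and 3436, 3484 and 3419 CPM at 24 h. Its 24 h libraries lay below those at 0 h, and those at 12 h overlapped both. Ncl, which encodes nucleolin, a chromatin- and rRNA-binding protein, stood at 1935, 1896 and 1908 CPM at 0 h, 2010, 1861 and 1887 CPM at 12 h and 1792, 1815 and 1819 CPM at 24 h. The 24 h libraries of Ncl lay below the other 6, with a log2 estimate of -0.08 against 0 h (SE 0.035, adjusted p = 0.127). Nolc1, which binds snoRNPs, had a log2 estimate of 0.12 at 12 h (adjusted p = 0.0702), and Ddx21, a helicase that binds rRNA and snoRNAs, -0.11 at 24 h (adjusted p = 0.0777). Near-identical copies elsewhere cover 53.8% of the Npm1, 83.3% of the Fbl and 39.2% of the Nop56 transcript.

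**Figure D3:**
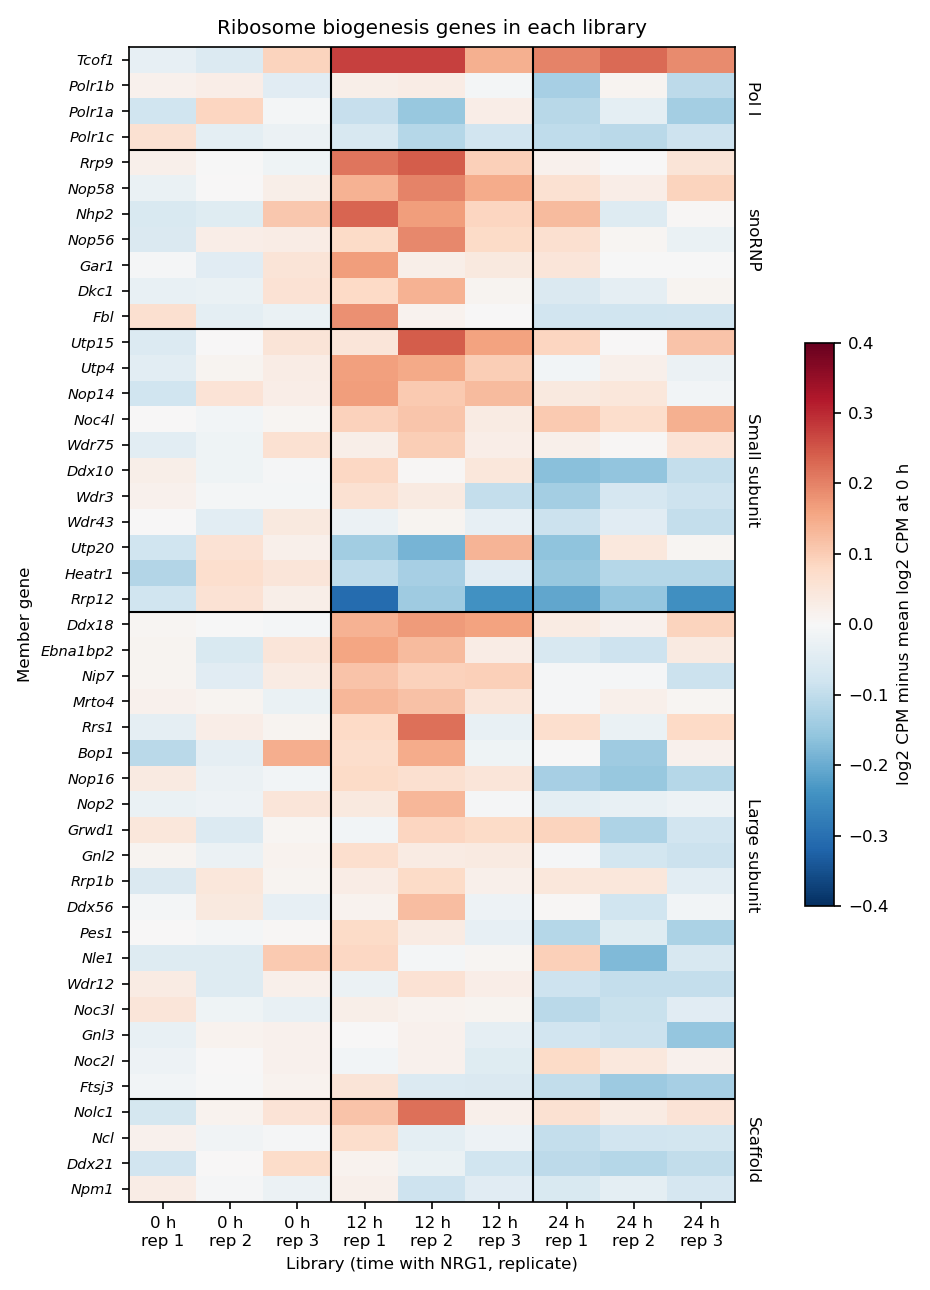
Colors give log2 CPM minus the mean of the 3 libraries at 0 h for the 45 members (rows, by role, ordered by their change at 12 h) in the 9 libraries (columns). Warm colors prevail in the snoRNP rows at 12 h and are paler in replicate 3 of that time, while Rrp12 is cool in all 6 later libraries and most rows are pale or cool at 24 h.

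Between 12 and 24 h, most estimates were small and negative, and 4 of 45 members passed. The log2 estimate was negative for 41 of 45 (91.1%), compared with 49.1% of all tested genes, with a median of -0.089 against 0.0023 for all genes. The 4 that passed were Nop16, Ddx10, Rrp9 and Utp4, and the 4 with positive estimates were Noc2l, Noc4l, Utp20 and Rrp12, of which the largest was 0.06. At 12 h against 0 h, 34 of 45 estimates were positive and 24.4% negative, where 50.9% were negative over all tested genes, and the median was 0.047 against -0.0028. At 24 h against 0 h, 29 (64.4%) were negative, where 52.1% were over all tested genes, and the median was -0.036 against -0.0065. The comparisons share libraries, and 33 members with a positive estimate at 12 h had a negative one from 12 to 24 h, which the libraries at 12 h enter with opposite signs. Averaged over the 45 members, log2 CPM relative to the 0 h mean was 0.06, 0.06 and 0.02 at 12 h, -0.03, -0.04 and -0.03 at 24 h and -0.02, 0.00 and 0.02 at 0 h.

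The count of calls rested on single libraries. With replicate 3 at 12 h left out, 13 members were higher at 12 h against 0 h and 10 were lower at 24 h against 12 h, and all 8 calls at 12 h (7 higher, 1 lower) and all 4 calls from 12 to 24 h of the full set were kept. Leaving out the 12 h replicate 1, the 24 h replicate 1 or the 24 h replicate 2, 0 members passed as lower from 12 to 24 h. In these fits 214, 217 and 220 of all genes passed instead of 572, so calls were lost across the whole table. Without replicate 2 at 0 h, 0 members were lower at 24 h than at 0 h, and 1566 of all genes passed instead of 1982.

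**Figure D4:**
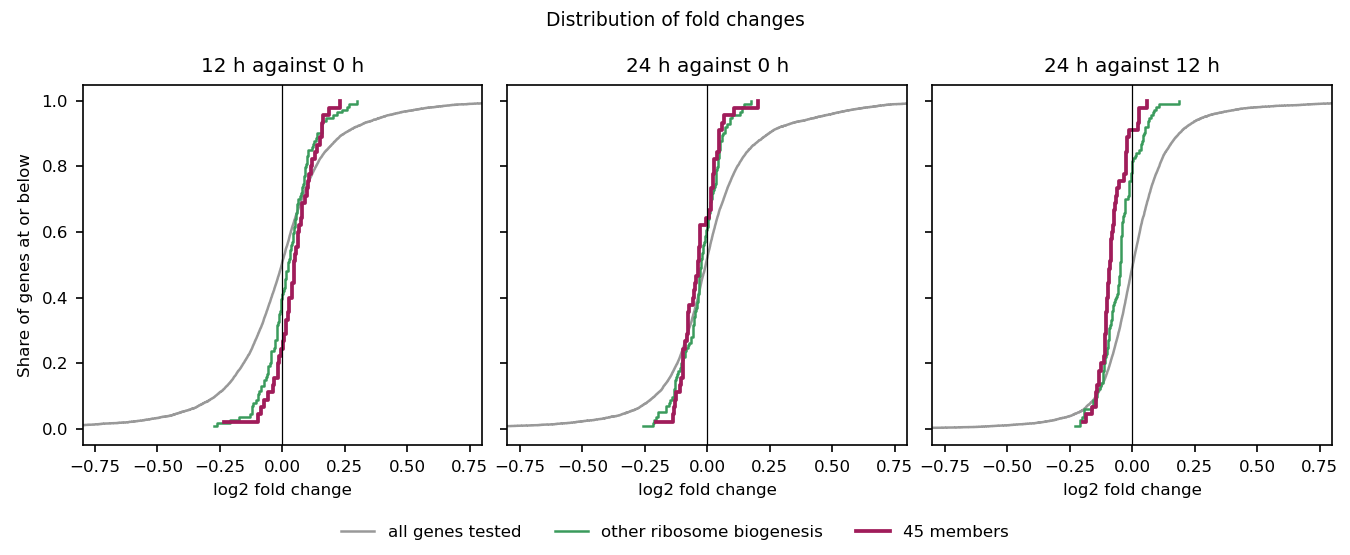
Cumulative shares of genes (y axis) are drawn against the log2 fold change (x axis, shown from -0.8 to 0.8) for the 45 members, 114 other ribosome biogenesis genes and all 11373 genes tested, in the 3 comparisons. The members' curve is steeper than that of all genes throughout, and at 24 h against 12 h it lies to the left of 0 for 41 of 45 members.

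To set the members beside related genes, 114 other tested genes of ribosome biogenesis were followed. Of these, 10 (8.77%) rose and 5 (4.39%) fell at 12 h against 0 h, where 13.6% of all tested genes were higher and 11.9% lower. At 24 h against 0 h, 0 were higher and 7 (6.14%) lower, where 9.67% of all were higher and 7.76% lower. From 12 to 24 h, 0 were higher and 7 (6.14%) lower, where 1.97% of all were higher and 3.06% lower. The log2 medians of the 114 genes were 0.024, -0.026 and -0.048. Their estimate from 12 to 24 h was negative for 80.7%, against 49.1% of all tested genes. Ruvbl2, an ATPase that helps assemble box C/D snoRNPs, changed most: it stood at 159, 158 and 156 CPM at 0 h, 195, 194 and 193 CPM at 12 h and 166, 163 and 167 CPM at 24 h. It rose by 0.30 (SE 0.033, adjusted p = 7.69e-06) at 12 h and fell by 0.23 (SE 0.033, adjusted p = 0.000592) from 12 to 24 h on the log2 scale, and its 12 h libraries were above the other 6. Utp23, a small-subunit processing factor, rose by 0.27 at 12 h (SE 0.094, adjusted p = 0.0485) from a mean of 9.03 to 10.9 CPM. Urb1, a scaffold of large-subunit precursors, had a change of -0.27 at 12 h (SE 0.058, adjusted p = 0.00233) and -0.20 at 24 h (SE 0.058, adjusted p = 0.0258). Nol8 averaged 42.1 CPM ± 1.9 (SD, n = 3) in the 0 h libraries, 36.4 ± 1.6 in those at 12 h and 36.3 ± 0.088 in those at 24 h, with changes of -0.21 and -0.22 against 0 h (adjusted p = 0.00556 and 0.00652). Las1l, an endonuclease that cuts the spacer of the precursor rRNA, was -0.26 at 24 h against 0 h (SE 0.043, adjusted p = 0.000425).

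Ribosomal protein genes were followed beside them. Of 79 cytosolic ribosomal protein genes, 0 rose and 1 (1.27%) fell at 12 h, and 0 passed at 24 h against 0 h. These shares were below those of all tested genes, and the log2 medians were -0.0072 and 0.021. From 12 to 24 h their median was 0.027 and 29.1% of the estimates were negative, against 91.1% of the members. The 77 mitochondrial ribosomal protein genes had medians of 0.041, 0.0040 and -0.040 in the 3 comparisons, and 83.1% of their estimates from 12 to 24 h were negative. All 12 genes of a proliferation list rose at both times. Of all tested genes, 13.6% were higher at 12 h and 9.67% at 24 h. The log2 medians of the 12 were 0.54 at 12 h and 0.54 at 24 h against 0 h, and 4 of them reached 1.5-fold at each time. This list, like the others, was chosen with earlier results of these data known. A difference between these lists and the members was not tested.

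**Figure D5:**
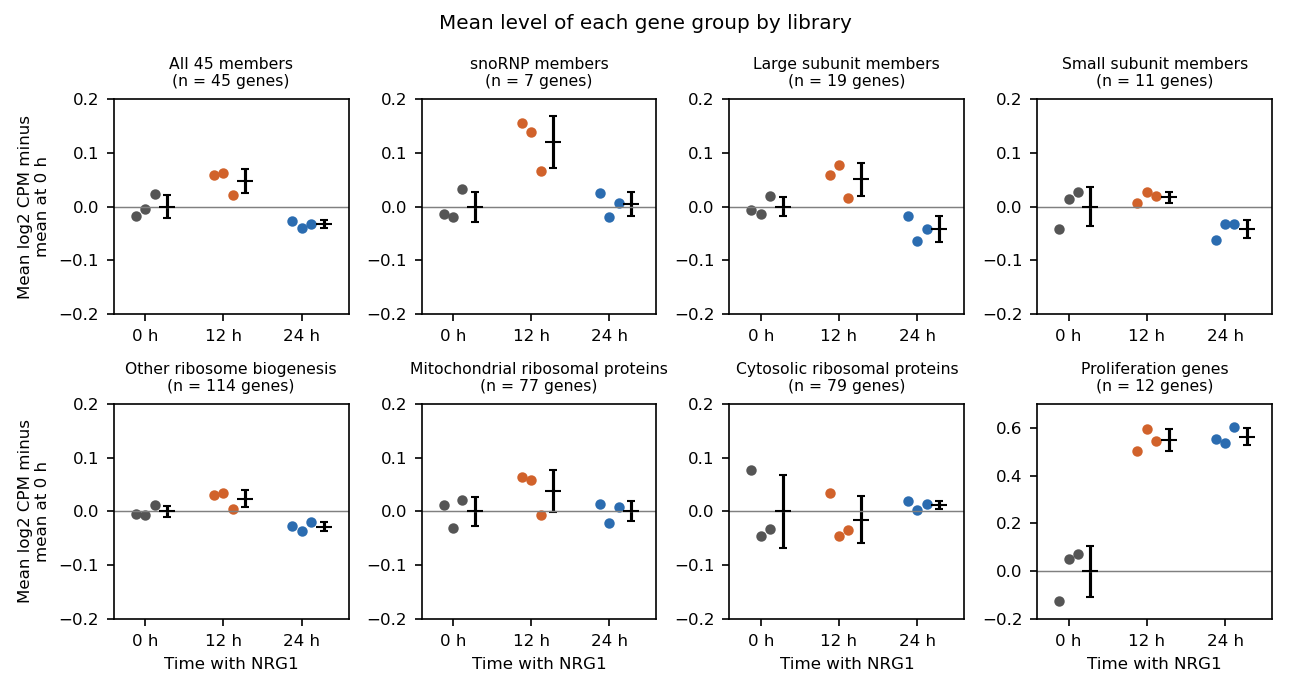
Each point is 1 library and gives the mean log2 CPM of a gene group relative to its mean at 0 h (y axis, wider in the last panel) at 0, 12 and 24 h (x axis), with bars for the mean and SD of 3 libraries. The snoRNP genes reach 0.07 to 0.16 at 12 h and return to -0.02 to 0.03 at 24 h, whereas the proliferation genes lie between 0.50 and 0.60 at both times.

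The mouse Myc row did not pass in any comparison. It stood at 74.7, 67.7 and 70.7 CPM at 0 h, 64.9, 54.5 and 71.5 CPM at 12 h and 74.8, 76.1 and 74.2 CPM at 24 h. The 12 h libraries spread widely and overlapped those at 0 h. Its log2 estimate was -0.16 (SE 0.070, adjusted p = 0.113) at 12 h and 0.08 (SE 0.069, adjusted p = 0.481) at 24 h against 0 h, and 0.24 (SE 0.069, adjusted p = 0.0596) at 24 h against 12 h. Among 9 tested genes of the MYC network, the related genes Mxd4 and Mxd3 went opposite ways. Mxd4 fell at 12 h and at 24 h against 0 h by 0.28 and 0.34 on the log2 scale, and Mxd3 rose by 0.64 and 0.83. Mxi1 rose by 0.17 at 12 h and fell by 0.15 from 12 to 24 h.

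Promoters of the members were read from RefSeq (GRCm38.p6), which held 38 of the 45, as 250 bases before to 50 after the start of transcription. CACGTG, the E-box bound by MYC with MAX, was found in 7 of the 38 (18.4%), in 12.1% of 9089 tested genes and in 8.09% of 27025 genes with a promoter. CCGGAAG, a core bound by ETS factors, was found on either strand in 14 of the 38 (36.8%), in 21.3% of the tested genes and in 9.93% of all. CACGTG is its own reverse complement, and the motifs do not overlap in the stretches shown. The following stretches upstream of the start are printed 5′ to 3′ on the strand of the gene, with matches in capitals (CTTCCGG is CCGGAAG on the other strand), because Nop2 holds both motifs before its start, Utp4 passed at 12 h and holds the ETS core in 2 places, and Ddx10 passed at 24 h.
Nop2 (chr6:125131763-125131882, plus strand): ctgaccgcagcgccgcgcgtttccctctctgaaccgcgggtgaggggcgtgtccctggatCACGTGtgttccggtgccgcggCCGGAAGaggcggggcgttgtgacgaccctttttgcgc
Utp4 (chr8:106893520-106893635, plus strand): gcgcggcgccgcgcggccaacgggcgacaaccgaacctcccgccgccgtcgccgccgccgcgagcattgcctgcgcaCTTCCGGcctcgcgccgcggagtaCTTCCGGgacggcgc
Ddx10 (chr9:53248213-53248332, minus strand): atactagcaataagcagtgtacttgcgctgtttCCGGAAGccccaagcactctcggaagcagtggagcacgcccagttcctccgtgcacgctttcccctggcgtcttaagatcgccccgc

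The E-box of Nop2 began 60 bases before the start and its ETS core 38 bases before it. In Utp4 the ETS cores began 43 and 19 bases before the start, and in Ddx10 the match began 187 bases before it. Of the 11 members that passed in any comparison, 9 had a RefSeq promoter, and the stretches of Utp4, Ddx10 and Nhp2 held the ETS core, that of Utp4 also CACGTG just after its start. Nop2, with both, had log2 estimates of 0.06 at 12 h and -0.03 at 24 h against 0 h, and averaged 127 CPM ± 3.7 (SD, n = 3) in the 0 h libraries, 132 ± 6.5 in those at 12 h and 124 ± 0.82 in those at 24 h. A match describes these letters only and is not evidence of binding.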

How the data were processed

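Total RNA of 9 MyC-CaP cultures was sequenced as paired-end mRNA libraries. Per the labels and the study's methods, the authors trimmed reads with Cutadapt, aligned them to GRCm38.p6 with STAR and ran featureCounts; the deposited values are raw gene counts, not normalized, for 15552 protein-coding genes. Use of strand and the treatment of reads that match several genes are not given in the sources used here. The labels gave each sample's time and called the replicates biological.

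Counts were filtered with filterByExpr, scaled by TMM and fitted together for all 9 libraries with edgeR 4.0.16 (R 4.3.3, glmQLFit and glmQLFTest, two-sided), with Benjamini-Hochberg adjustment over 11373 genes. Scripts were tested on simulated data. CPM used TMM-scaled library sizes, with a prior count of 2 for group means on the log2 scale. The members, gene lists and tests were chosen with earlier results of these data known. Values in every library are given for 12 role representatives and for the 3 largest passing changes in each direction per comparison; from the other ribosome biogenesis genes, the 2 largest passing changes in each direction against 0 h are named, and Myc is named regardless. Gene length was that of a GENCODE vM21 transcript with a consensus coding sequence, where given. Intervals are 95% intervals of the fit. DESeq2 1.42.0, other scalings, no filter, fits of 2 time points, a replicate block and leaving out each library were the alternatives.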

Additional observations from a re-analysis of the deposited data

Results flagged for a closer look

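Members whose change against 0 h differed between 12 h and 24 h, as tested by the direct comparison of 24 h with 12 h (edgeR quasi-likelihood test, Benjamini-Hochberg adjusted over all genes), were 4 of 45. Nop16 differed by -0.20 on the log2 scale, Ddx10 by -0.18, Rrp9 by -0.16 and Utp4 by -0.14, each lower at 24 h than at 12 h. Rrp9 and Utp4 had risen from 0 to 12 h, while for Nop16 and Ddx10 the estimate at 12 h against 0 h was 0.06 and 0.05 and did not pass. In all 3 libraries at 24 h, each of the 4 genes was below all 3 libraries at 12 h.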

How the results depend on the processing

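DESeq2, relative log expression factors, library totals and fits of 2 time points left the counts of members that passed within 1.5 times of those reported, except that library totals gave 2 members lower at 24 h than at 12 h instead of 4. Without a filter there were 7, and 950 genes in all instead of 572; the added calls were not traced to a cause. With each library left out in turn, the members higher at 12 h numbered 5 to 13 and those lower 1 to 2, those lower at 24 h against 0 h 0 to 4, and those lower at 24 h against 12 h 0 to 10, with 214 to 879 genes passing in all in that last comparison. The medians of the members kept their sign, at 0.025 to 0.069, -0.052 to -0.0091 and -0.114 to -0.078 in the 3 comparisons. The correlation of deviations ran from -0.07 to 0.13 between libraries of the same number and from -0.13 to 0.12 between those of different numbers. With 3 libraries per time, these values cannot decide whether the replicate number pairs the samples. With the number as a replicate block, 7 members were higher and 1 lower at 12 h, 1 higher and 3 lower at 24 h against 0 h, and 5 lower at 24 h against 12 h. The causes of these shifts were not tested.

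Among the estimates for named members and Myc, 990 kept their direction and side of the threshold, 45 no longer passed, 20 newly passed and 25 changed sign. Those that changed sign were small and had not passed. With library totals the estimate of Ncl at 12 h became -0.0064. With a library left out, the ranges at 24 h against 0 h were -0.097 to 0.036 for Bop1, -0.045 to 0.0063 for Dkc1, -0.023 to 0.088 for Nhp2, -0.017 to 0.053 for Nop14, -0.013 to 0.039 for Nop56, -0.075 to 0.023 for Utp20 and -0.025 to 0.015 for Utp4. At 12 h against 0 h they were -0.056 to 0.010 for Ftsj3, -0.021 to 0.018 for Gnl3 and -0.030 to 0.027 for Ncl, and at 24 h against 12 h -0.040 to 0.0077 for Npm1, -0.059 to 0.022 for Polr1a, -0.011 to 0.077 for Rrp12 and -0.034 to 0.12 for Utp20. With 3 libraries per time and a median SE of 0.044 on the log2 scale, changes of under about 0.1 mostly could not be told from the spread between libraries.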
